A study of Caenorhabditis elegans with 2 samples.

Results

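The 9 genes described here encode clathrin heavy chain and the subunits of its adaptor complexes AP-1 and AP-2 in Caenorhabditis elegans, and they were read for binding of the zinc finger protein LSL-1. They were taken by name from 19973 protein-coding genes of the nuclear genome, each name matching 1 gene. The list was drawn up with binding results of these data in view, so peaks, ranks and replicate support are given as a description and carry no test. The data are chromatin immunoprecipitation sequencing (ChIP-seq) lists from 2 biological replicates of 1 group, whole young adult worms of mixed sex, aged 69 h, from cultures synchronised by bleaching and starvation of L1 larvae. The strain, OP720, has the unc-119(tm4063) allele and the transgene wgIs720, which supplies unc-119(+) and LSL-1 tagged with TY1, EGFP and 3xFLAG, and DNA was recovered with an antibody against GFP. Both replicates carry that transgene, an untagged strain is not analysed here, and whole animals do not show in which cells LSL-1 was bound. The lists contain 30000 regions from replicate 1, 26018 from replicate 2 and 30000 from the pool of both. A further list has 3897 peaks kept by irreproducible discovery rate (IDR), which compares peak ranks between replicates. The pooled list was deposited as peaks and background that served as input for IDR. Its weaker regions, called pooled regions here, can therefore be background and are not by themselves evidence of binding. Read depth is unknown, since only regions and their signal are listed. Ranks run from 1, the strongest signal in a list, and the 3897 IDR peaks are the 3897 strongest pooled regions.

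Clathrin forms the lattice that bends membrane into coated vesicles, and adaptor complexes link it to cargo. Each adaptor has 2 large subunits, a medium (mu) and a small (sigma) subunit: AP-1 works at the trans-Golgi network and endosomes, and AP-2 at the plasma membrane. In worms the beta subunit APB-1 serves both complexes. Clathrin-coated vesicles take up yolk into oocytes through the receptor RME-2.

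Of the 9 genes, 5 had an IDR summit in the promoter window, which covers the 1000 bp before the gene's 5' end and the first 200 bp after it. These were unc-101, chc-1, apb-1, apg-1 and aps-1. Among all protein-coding genes 14.2% had such a summit, a share against which nothing is read here because the genes were chosen on it. The genes without one were the second AP-1 medium chain gene apm-1 and the 3 genes of subunits found only in AP-2, apa-2, dpy-23 and aps-2. These 3 genes lie on the X chromosome, where 1.03% of 2731 protein-coding genes had an IDR summit in the window. The other 6 lie on autosomes, where the share was 16.3% of 17242 genes (40.5% with any pooled region), with 5 of the 6 bound. The shared beta subunit gene apb-1 is autosomal and bound, so AP-2 as a whole is not confined to X or to unbound genes, but for the subunits found only in AP-2, that role and location on X cannot be told apart.

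The sequences under 4 of the summits are shown first, because they hold the short words counted further on and a repeat beside apb-1. They are read from the RefSeq assembly of WBcel235, run 5' to 3' on the strand of the named gene, and reach 75 bp to either side of the summit, which is the base of strongest signal. Capitals mark 5 words on either strand, namely ACAGTA with the related ACTGTA, the word CTACAG that overlaps both, and the GC-rich words GGCGCA and ACGCGC.
chc-1 promoter peak, chrIII:10202999-10203149, plus strand: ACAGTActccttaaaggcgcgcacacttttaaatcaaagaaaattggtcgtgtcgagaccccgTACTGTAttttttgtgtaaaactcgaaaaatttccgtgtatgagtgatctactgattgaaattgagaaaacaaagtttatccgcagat
aps-1 promoter peak, chrV:6017787-6017937, plus strand: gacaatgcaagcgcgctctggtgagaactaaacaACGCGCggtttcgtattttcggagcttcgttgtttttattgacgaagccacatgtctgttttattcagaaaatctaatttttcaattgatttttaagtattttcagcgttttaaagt
stronger summit upstream of apb-1, chrIII:2598572-2598722, minus strand: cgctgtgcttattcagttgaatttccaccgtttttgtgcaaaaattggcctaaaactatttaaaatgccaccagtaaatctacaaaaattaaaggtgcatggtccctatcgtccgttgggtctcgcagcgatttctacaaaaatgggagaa
weaker summit upstream of apb-1, chrIII:2598788-2598938, minus strand: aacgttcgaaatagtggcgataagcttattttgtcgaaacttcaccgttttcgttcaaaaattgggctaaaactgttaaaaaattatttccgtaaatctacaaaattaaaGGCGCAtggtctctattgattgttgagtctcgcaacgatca
For contrast, the strongest pooled regions in the promoter windows of the X-linked genes dpy-23 and aps-2, both below the IDR list, read as follows.
dpy-23 pooled region, chrX:4388945-4389095, plus strand: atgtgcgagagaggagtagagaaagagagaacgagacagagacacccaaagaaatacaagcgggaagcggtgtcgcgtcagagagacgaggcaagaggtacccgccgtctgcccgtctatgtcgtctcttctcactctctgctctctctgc
aps-2 pooled region, chrX:4458010-4458160, plus strand: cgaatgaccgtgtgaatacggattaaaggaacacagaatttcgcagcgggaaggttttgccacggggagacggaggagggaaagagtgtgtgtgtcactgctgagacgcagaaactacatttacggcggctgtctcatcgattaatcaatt

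The AP-1 medium chain gene unc-101 had one of the strongest LSL-1 peaks in the genome. Its gene (WBGene00006829) lies on chromosome I from 12508299 to 12513420 on the plus strand. The peak ranked 10 in the pooled list, 10 in replicate 1 and 10 in replicate 2. Both replicates thus placed it equally high, with summits at -365 bp and -366 bp from the 5' end. Its signal was 30.6 times that of the weakest IDR peak and 14.4 times the median of the list. By its strongest promoter peak unc-101 took position 11 of 2836 bound protein-coding genes, and position 1 of the 660 on chromosome I. The region, from 12507544 to 12508375, was 832 bp wide, and 99.3% of IDR peaks were narrower. Replicate 2 held a further summit in it at -160 bp (rank 354), which the pooled list and replicate 1 did not hold. The summit is intergenic and no other annotated promoter window held it. The upstream neighbour asah-1, an acid ceramidase gene, runs in the same direction and ends 729 bp before unc-101. The peaks next to it in signal were near the histone demethylase gene jmjd-2 (rank 9) and the egg activation gene egg-4 (rank 11). Their ranks in replicates 1 and 2 were 7 and 14 for jmjd-2 and 12 and 9 for egg-4, so the order among these 3 was not kept between replicates.

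A further IDR peak lay inside unc-101. It ranked 2050, had its summit in an intron at +1585 bp, and lay at -452 bp from the 5' end of a shorter annotated transcript. Its ranks were 2035 in replicate 1 and 2257 in replicate 2, and the replicate summits lay 46 bp and 52 bp from the pooled one. Of the 9 genes only unc-101 held an IDR summit within its annotated span.

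The paralogue apm-1, which encodes the other AP-1 medium chain, fell just below the IDR list. The gene (WBGene00000150) lies on chromosome I from 5342180 to 5344724 on the minus strand. Its strongest pooled region in the window had its summit at -437 bp and ranked 4522, with 0.855 times the signal of the weakest IDR peak. That region ranked 4363 in replicate 1, with a summit at -505 bp, and 4165 in replicate 2, with a summit at -427 bp. Both replicates therefore held the region, and both placed it below their own 3897 strongest. Only 2.39% of the 26103 pooled regions below the IDR list had a higher signal. The window also belongs to the divergent gene F55A12.5, which has the summit at -766 bp. A weaker region at -645 bp ranked 7119 and had no summit within 100 bp in replicate 2. Of the 9 genes, the bound one closest to the threshold was aps-1, with a pooled signal of 137 where the weakest IDR peak had 115 and apm-1 98.1, so apm-1 and aps-1 stand on either side of it.

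The large AP-1 subunit gene apg-1 (gamma) had a narrow peak that it shared. The gene (WBGene00000158) lies on chromosome I from 14406028 to 14417934 on the plus strand. Its peak, from 14405651 to 14405889, ranked 1540 in the pooled list, 1558 in replicate 1 and 1547 in replicate 2, so the replicates placed it nearly alike. The replicate summits were at -262 bp and -267 bp. The window overlaps that of tcab-1, a divergent gene of the telomerase Cajal body protein family, which was closer to the summit, at -117 bp. With only the closest gene counted for each peak, apg-1 was not bound.

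The small AP-1 subunit gene aps-1 (sigma) had the weakest of the 5 promoter peaks, and it was not matched in replicate 2. The gene (WBGene00000159) lies on chromosome V from 6017970 to 6018886 on the plus strand. The peak ranked 3306 in the pooled list with its summit at -108 bp. In replicate 1 it ranked 2564 with a summit at -109 bp. In replicate 2 the nearest summit was 108 bp away, beyond the 100 bp taken as a match, and ranked 18530. The strongest replicate 2 region in the window ranked 3155, but its summit at -526 bp lay 418 bp from the pooled one, inside the neighbouring gene. Over all 3897 IDR peaks 4.11% had no replicate 2 match, and among the 401 within 200 ranks of aps-1 10.97% had none. The neighbour is rpt-2, which encodes an ATPase subunit of the proteasome, is divergent from aps-1 and shares the peak, at -193 bp. The 5' end of the noncoding RNA gene F29G9.10 lay 11 bp from the summit. The gene picc-1 follows aps-1 on the same strand after 107 bp.

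The beta subunit gene apb-1, common to AP-1 and AP-2, lay beside a group of 3 IDR summits. The gene (WBGene00000160) lies on chromosome III from 2583971 to 2597034 on the minus strand. The promoter peak, from 2597140 to 2597418, ranked 843 in the pooled list, 831 in replicate 1 and 927 in replicate 2. Its replicate summits were at -255 bp and -241 bp. The window is shared with the divergent Mediator subunit gene mdt-19, which has the summit at -778 bp. The other 2 summits, at -1613 bp (rank 136) and -1829 bp (rank 605), lie in 1 region of 949 bp inside an intron of mdt-19 and in no protein-coding promoter window. Both lie in the window of the noncoding RNA gene Y71H2B.12, at -411 bp and -195 bp from its 5' end. The rank 136 summit ranked 133 in replicate 1 and 156 in replicate 2. The rank 605 summit ranked 692 and 356, a wider spread than that of its neighbour. A window of 2000 bp upstream, which takes in both, still counted apb-1 as 1 bound gene.

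The 2 summits in the mdt-19 intron lie 216 bp apart and have similar sequence. Local alignment of the 151 bp around each gave 78.9% identity over 128 aligned columns on the same strand. The alignment score was 116, and the next highest among the 105 pairs of such windows read at the 9 genes was 32. In the RefSeq file 74.3% of the bases within 50 bp of each of the 2 summits are in lower case, which there marks masked repeats. Masking at other summits of the 9 genes varied widely. It covered 98.0% at the unc-101 intron summit, 81.2% at the chc-1 promoter summit and 64.4% at that of unc-101. At the promoter summits of aps-1 and apg-1 it covered 35.6% and 28.7%. The strongest pooled regions in the windows of apm-1, dpy-23 and aps-2 had 16.8%, 7.92% and 0%. Among all IDR summits 33.4% had 50 percent or more of these bases masked.

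**Figure D1:**
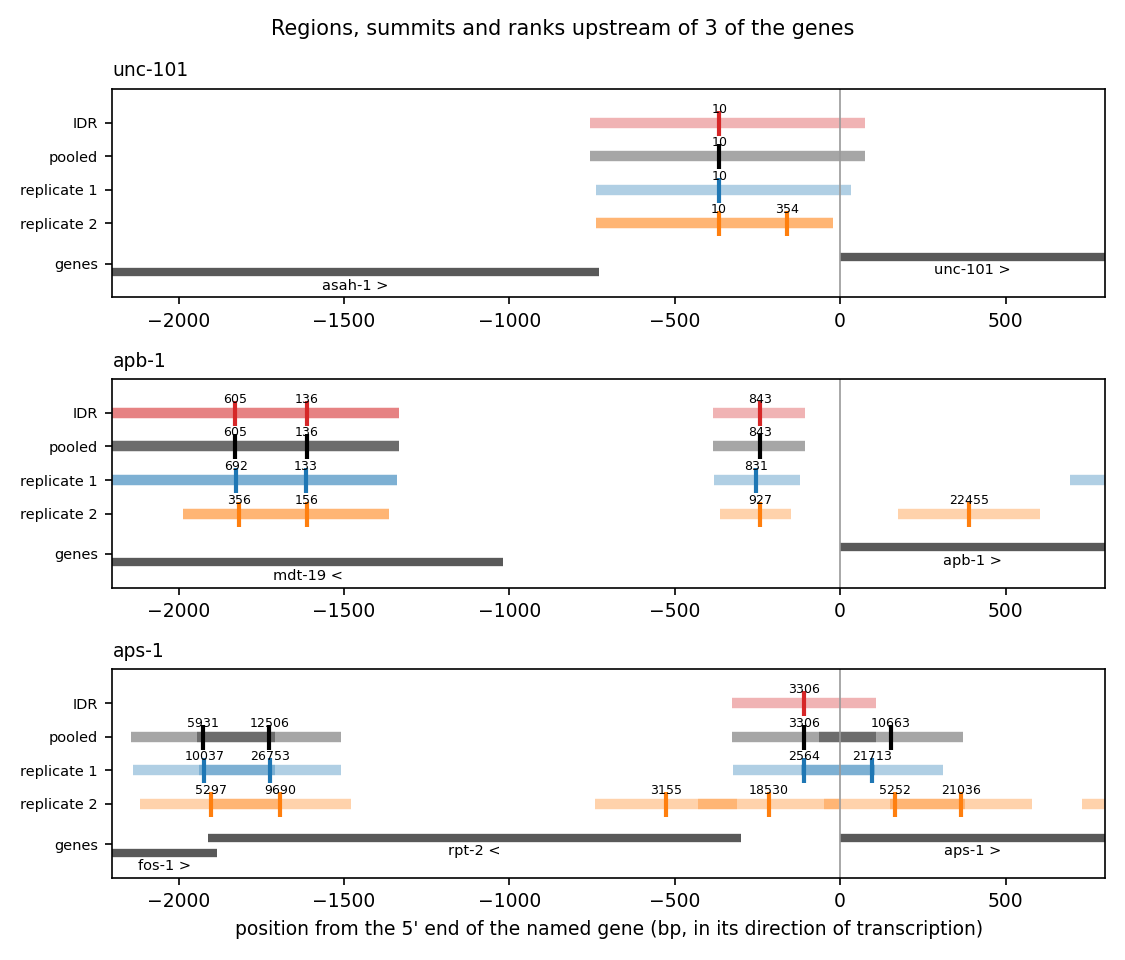
Regions (bars), summits (ticks) and ranks (numbers) upstream of unc-101, apb-1 and aps-1 in the IDR, pooled and replicate lists, with protein-coding genes below; the x axis is the distance in bp from the 5' end, in the direction of transcription. The unc-101 summit has rank 10 in every list, apb-1 has 3 IDR summits, and at aps-1 replicate 2 has its strongest summit at -526 bp, away from the pooled one at -108 bp.

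The clathrin heavy chain gene chc-1 had the second strongest promoter peak of the 9 genes and the one farthest upstream. The gene (WBGene00011867) lies on chromosome III from 10203821 to 10209704 on the plus strand. The peak, from 10202870 to 10203250, ranked 525 in the pooled list, 535 in replicate 1 and 566 in replicate 2. Its replicate summits were at -766 bp and -746 bp, and its signal was 7.25 times that of the weakest IDR peak. The summit is intergenic, and of the annotated windows it lies in that of chc-1 alone. By strength chc-1 took position 557 of 2836 bound genes. The peaks next to it in signal were closest to the polo kinase gene plk-2 (rank 524; 500 and 619 in the replicates) and to Y59A8B.21 (rank 526; 579 and 445), a spread wider than that of chc-1 itself. A second pooled region at -540 bp ranked 4621 in the pooled list and 2231 in replicate 1, and it had no match in replicate 2. Because of its distance, chc-1 was not bound when the window was narrowed to 500 bp upstream. Among the 2836 bound genes 21.1% had their strongest summit 500 bp or more upstream, and the middle 50 percent lay between -449 bp and -139 bp.

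The 3 AP-2 genes on X had weak regions in their windows or none. The medium chain gene dpy-23 (WBGene00001082, chromosome X, 4389359 to 4393803, plus strand) had a pooled region with its summit at -339 bp that ranked 5332. It ranked 5495 in replicate 1 and 9321 in replicate 2, with summits at -360 bp and -322 bp. Both replicates thus listed it, with a −log10 q-value of 2.26 in replicate 1 and 0.730 in replicate 2. Its signal was 0.727 times that of the weakest IDR peak, and the summit lies in an exon of the noncoding RNA gene R160.8. The small subunit gene aps-2 (WBGene00000157, X, 4458272 to 4459255, plus strand) had a region at -187 bp that ranked 8095 in the pooled list and 7009 in replicate 1, and replicate 2 had no summit within 1000 bp of it. The pooled −log10 q-value of that region was 1.06. A stronger pooled region lay outside the window, at -4962 bp with rank 4645. The alpha subunit gene apa-2 (WBGene00000161, X, 9338675 to 9342900, plus strand) had no pooled summit in its window. Replicate 2 alone held a summit there, at -852 bp, with rank 24346 and a −log10 q-value of 0.0347. No IDR summit lay within 5000 bp of the 5' end of any of the 3 genes. On X, 12.9% of protein-coding genes had a pooled summit in the window, and among these 353 genes dpy-23 took position 50 and aps-2 position 74 by strength. The best IDR peak on X ranked 1363, and 61 of the 3897 IDR peaks lay there.

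Counting any pooled region, possible background included, 8 of the 9 genes had a summit in the window, against 36.7% of all protein-coding genes. In the order of their strongest promoter summits the genes ran unc-101, chc-1, apb-1, apg-1, aps-1, apm-1, dpy-23 and aps-2. The first 4 of these kept that order in both replicates. The larger of their replicate ranks exceeded the smaller by a factor of 1 for unc-101, 1.06 for chc-1, 1.12 for apb-1 and 1.01 for apg-1. The median factor over the 3708 IDR peaks matched in both replicates was 1.19. The places of apm-1 and dpy-23 relative to each other were also kept, while those of aps-1 and aps-2 could not be read in replicate 2.

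**Figure D2:**
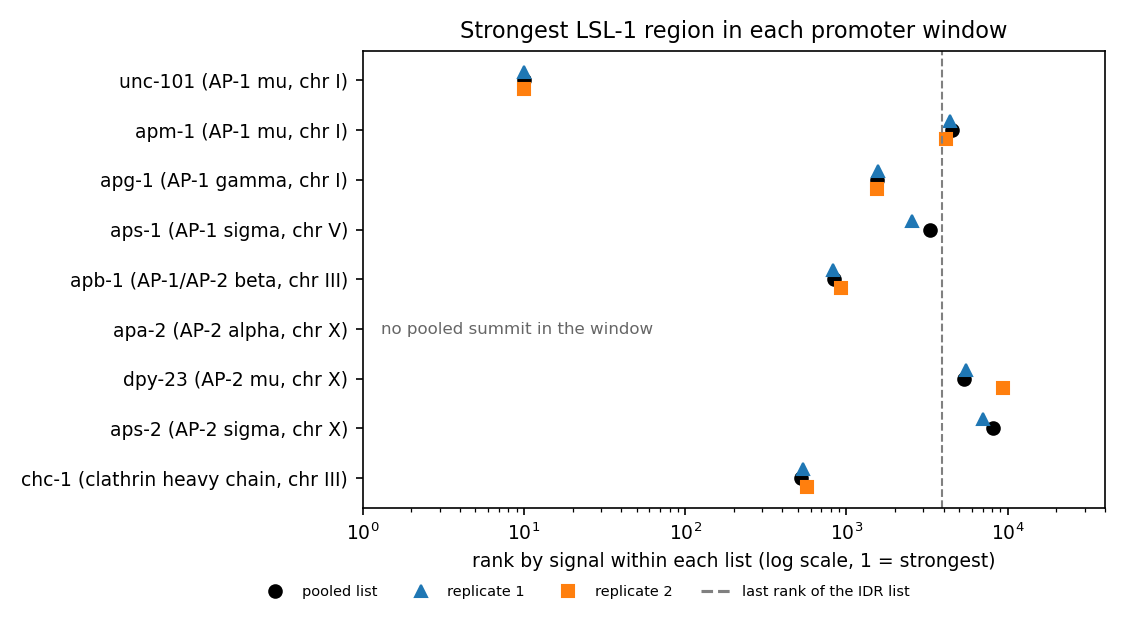
Rank of the strongest pooled region in each promoter window (circles), on a log axis from the strongest (left). Triangles (replicate 1) and squares (replicate 2) are the ranks of the replicate summits within 100 bp of it. Other replicate regions in the windows are not drawn. The dashed line is the last IDR rank, 3897. Symbols for unc-101, apg-1, chc-1 and apb-1 nearly coincide, aps-1 and aps-2 have no replicate 2 match, and apa-2 has no pooled summit.

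**Figure D3:**
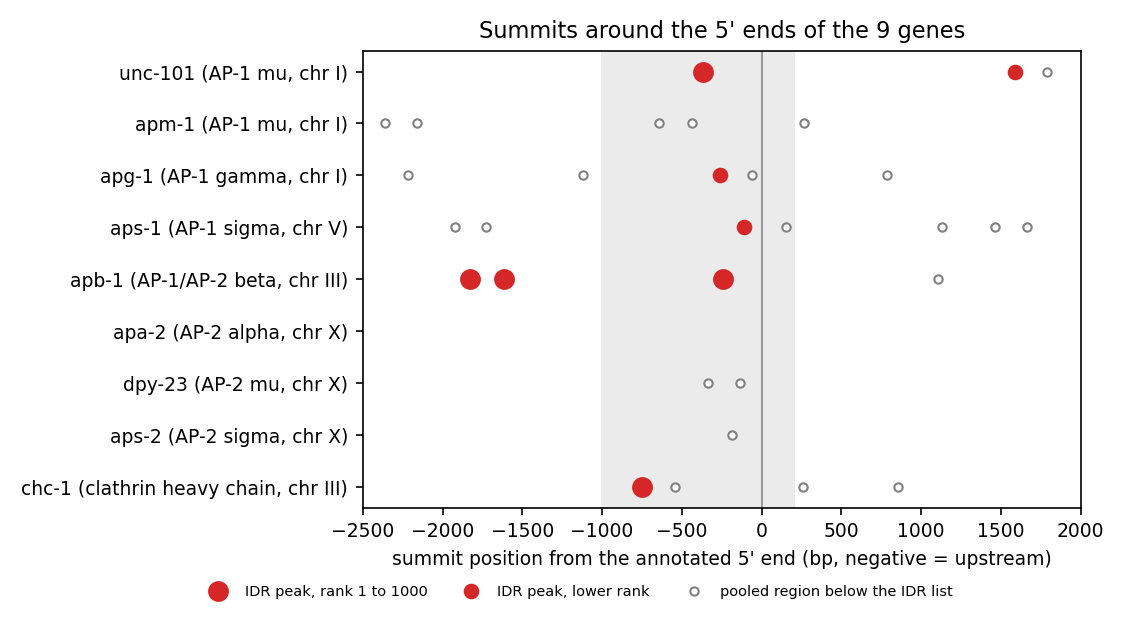
Positions of pooled summits from 2500 bp upstream to 2000 bp downstream of each 5' end, in bp; filled circles are IDR peaks, larger for ranks 1 to 1000, open circles are weaker pooled regions, and the shaded band is the promoter window. The 5 promoter IDR summits lie between -747 bp and -108 bp, and those at apb-1 outside the band lie at -1613 bp and -1829 bp.

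At the promoter summits of unc-101, chc-1, apg-1 and aps-1, the 4 for which sequence was read, at least 1 of the 5 words lay within 50 bp. The words were chosen in an earlier analysis of these same peaks, so the count is a description. Among all IDR summits 46.8% had 1 of the words, as did 17.8% of lower-ranked pooled summits and 13.1% of stretches of equal length centred 200 bp upstream of protein-coding genes. The word ACGCGC lay at 2 of them, apg-1 and aps-1, with its centre 22 bp and 38 bp from the summit. It was found at 14.2% of IDR summits and 2.41% of promoter stretches. The unc-101 summit had GGCGCA at 34 bp, a word found at 18.2% of IDR summits and 2.18% of promoter stretches. At chc-1 the words ACAGTA and ACTGTA overlapped in the run TACTGTA, 8 bp to 9 bp from the summit. The first was found at 24.9% of IDR summits and 5.11% of promoter stretches, and the second at 943 of 3897 and 5.59%. None of the 4 had CTACAG, which overlaps both and was found at 17.4% of IDR summits and 3.1% of promoter stretches. The strongest pooled regions in the windows of apm-1, dpy-23 and aps-2 had no match to any of the words in the same distance. The weaker apm-1 region at -645 bp (rank 7119) had GGCGCA 5 bp from its summit. IDR summits outside the promoter windows also lacked words in places. The unc-101 intron summit (rank 2050) and the rank 136 summit upstream of apb-1 had no match. The rank 605 summit upstream of apb-1 had GGCGCA at 37 bp. The promoter summits fell on both sides of the GC content of IDR summits (median 41.6% within 50 bp, middle 50 percent from 35.6% to 47.5%): unc-101 had 34.7%, chc-1 33.7%, aps-1 33.7% and apg-1 50.5%. The weak X regions had 57.4% at dpy-23 and 52.5% at aps-2.

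Other coats and endocytic factors were read from 8 gene lists, also drawn up with results of these data known. Of 61 genes found by name, 23 had an IDR summit in the window (37.7%, against 14.2% of all protein-coding genes). They comprised 22 of 54 autosomal genes and 1 of 7 on X. In the AP-3 complex, which sorts cargo to lysosome-related organelles, 2 of 4 were bound. The delta subunit gene apd-3 had rank 71 (72 and 70 in the replicates) at -287 bp, and the small subunit gene aps-3 had rank 995 (1012 and 1008) in a window shared with the ribosomal protein gene rpl-17. The beta subunit gene apb-3 had only a pooled region of rank 17052, and apm-3, the AP-3 medium chain gene on X, had none.

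Among clathrin partners and accessory factors 4 of 14 were bound. They were led by unc-11, which encodes the AP180 clathrin assembly protein, with rank 72 (71 and 66 in the replicates) at -366 bp. The AP-2 activator gene fcho-1 had rank 499 (510 and 498), shared with alh-6, and the Eps15 gene ehs-1 had rank 1674 (1639 and 2019) at -842 bp. The epsin gene epn-1 was the 1 bound list gene on X, with rank 3756, and ranked 3814 in replicate 1 and 5715 in replicate 2. The clathrin light chain gene clic-1 was not bound and had a pooled region of rank 5154 at -14 bp. The dynamin gene dyn-1, on X, had no pooled summit in its window. The list of 14 also counts picc-1, which was not bound and whose link to clathrin was not checked.

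Genes of the COPI and COPII coats, which form vesicles at the Golgi and the endoplasmic reticulum without clathrin, were bound in 5 of 7 and 6 of 8 cases. For COPI the strongest were copz-1 (rank 1194, shared with cyn-4), copg-1 (1319), copd-1 (2240 at -535 bp) and copb-2 (2473). For COPII they were sec-31 (rank 314 at -774 bp, shared with cbd-1), sec-24.2 (688, shared with ccr-4), npp-20 (723 at -806 bp, shared with hxk-3) and sec-24.1 (1149). The clathrin and AP genes had 5 of 9 bound. All COPI and COPII genes are autosomal, and among autosomal genes alone the clathrin and AP genes had 5 of 6, so which share is higher depends on whether genes on X are counted, and the differences were not tested.

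Of the Rab GTPase genes 3 of 8 were bound. These were rab-11.1 (rank 472 at -680 bp, shared with rpl-7), rab-5 (682 at -757 bp, shared with nmat-2) and rab-7 (1133 at -769 bp, shared with mex-1 and W03C9.5). Each had 1 IDR summit, so none of the 3 would count with a window of 500 bp upstream. The 8 lists were counted with the 1000 bp window alone. Of the ARF GTPase list 1 of 4 genes was bound, arf-6 at rank 3688, in a window shared with Y116A8C.9. The others read were the ARF-like genes arl-1, arl-3 and arl-8, since arf-1.1, arf-1.2 and arf-3 were not matched by name. Of the retromer and sorting nexin genes 1 of 7 was bound, snx-3 at rank 705, shared with rad-54.L. The recycling and yolk uptake list had 1 of 9, the yolk receptor gene rme-2, at rank 146 (151 and 128 in the replicates) with its summit at -79 bp. These last 2 lists were close to the share of all genes.

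**Figure D4:**
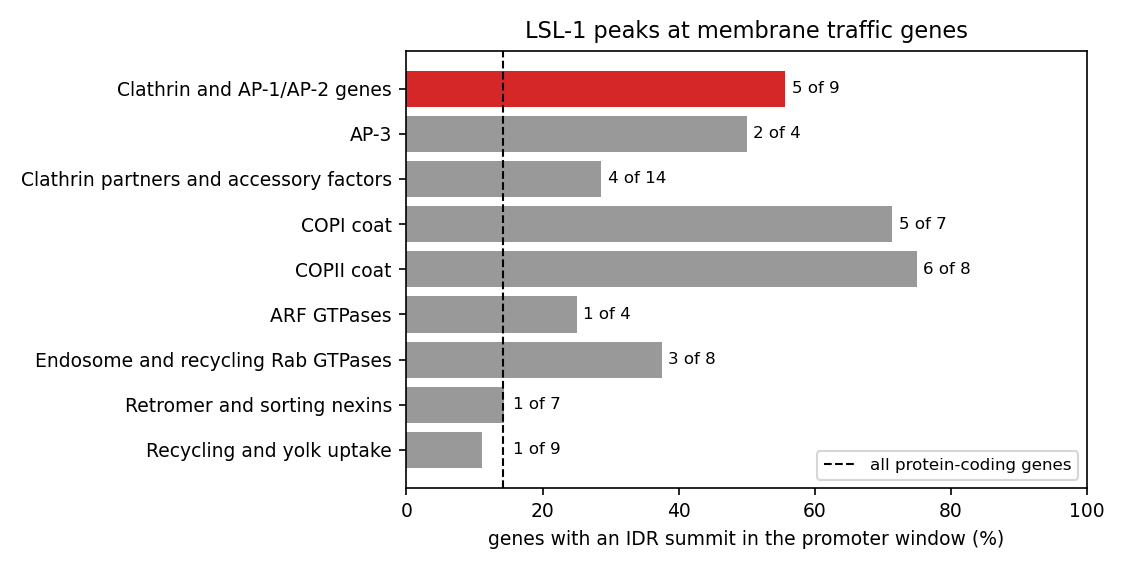
Percentage of genes with an IDR summit in the promoter window, for the 9 clathrin and AP-1/AP-2 genes (top bar) and 8 lists of coat and endocytic genes, with counts beside the bars; the dashed line is the 14.2% of all protein-coding genes. The COPI and COPII bars are the longest at 71.4% and 75%, and the retromer and recycling lists lie near the line.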

How the data were processed

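Positions are on ce11, which is WBcel235, as the samples' deposited notes state. The authors called regions separately for the replicates and for their pool, using a control library (not analysed here), and thresholded them by IDR. Caller, aligner and threshold: not given in the sources used here. Column 7 of each list, the deposited signal of a region, is on the caller's own scale and was compared only inside that list. A −log10 q-value per region was also deposited. It is printed for regions of the X-linked genes and entered no count or rank. Summits are the region start plus the deposited offset in column 10.

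Genes and 5' ends were those of Ensembl for WBcel235, and sequence was RefSeq's for that build. Because many worm transcripts are trans-spliced, true start sites can lie upstream of annotated ones. A summit within 100 bp counted as a replicate match. Of 65 list names 61 matched; arf-1.1, arf-1.2, arf-3 and rab-4 did not. The members and lists were chosen with earlier results of these data known. Named genes are the 9 members, genes sharing their peaks, the neighbours in signal of the 2 strongest, and up to 4 bound genes a list. Genes named for lacking a peak were chosen after their values were seen. There is 1 group, so no test was made. Sequence at the apb-1 promoter peak is not reported here. Windows were aligned with Biopython 1.88. Python 3.11.15, numpy 2.4.6, pandas 2.3.3 and matplotlib 3.10.9 were used. On simulated data 300 of 300 planted summits and 300 of 300 planted words were found.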

Additional observations from a re-analysis of the deposited data

How the results depend on the processing

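The 5 bound genes were the same with a window of 2000 bp upstream, any transcript's 5' end, region midpoints, and each replicate's own 3897 strongest regions. In that last setting, which takes 1 replicate's regions without rerunning IDR, the count of bound members was 5 both times. All bound protein-coding genes then numbered 2726 from replicate 2 and 2832 from replicate 1. Replicate 2 alone kept aps-1 only through its summit at -526 bp. The count was 4 without chc-1 (500 bp upstream), without aps-1 (upper 50% of IDR peaks by signal, where all bound genes fell to 1797) and without apg-1 (closest gene alone). With any pooled region it was 8, and 7337 of all genes. Support in both replicates was 4 of 5 genes at 50 bp and 100 bp and in the top lists, and 5 at 200 bp. The gene gained at 200 bp was aps-1, through the replicate 2 summit 108 bp away, which ranked only 18530. The 4 summits read for sequence also held a word within 100 bp and in the whole peak. That could not come out otherwise, since both stretches contain the bases within 50 bp. At the 4 promoter peaks matched in both replicates, the replicate summits lay at most 19 bp from the pooled one. No paired analysis was possible because there is 1 group. Read depth is unknown, so a missing region cannot be told from one too weak to be listed.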

Other observations

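Several coat and endocytic genes counted as unbound lay close under the IDR list. Of 38 list genes without an IDR summit, 21 had a pooled summit in the promoter window, and 6 of those ranked 5000 or better. Of all 61 list genes, bound ones included, 44 had a pooled summit there, against 36.7% of all protein-coding genes. The shares among all unbound genes were not computed, so nothing is read from the counts of 21 and 6. The 6 include sec-12, whose product activates the COPII GTPase SAR-1 (rank 3910, summit at -160 bp), and the auxilin gene dnj-25, which uncoats clathrin vesicles (3948, -39 bp). The COPII gene sec-23 (4296, -351 bp), the kinase gene sel-5 (4430, -210 bp) and the intersectin gene itsn-1 (4459, -268 bp) followed, and alx-1, an ALIX family gene, was at 4599 (-998 bp). These genes were picked after their values were seen. For comparison, aps-1 ranked 3306, inside the IDR list, and apm-1 ranked 4522, below it. The differences between these ranks were not tested.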
